A study of Homo sapiens with 12 samples.

Results

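The ACA-named small nucleolar RNAs (snoRNAs) are H/ACA box guide RNAs whose names begin with ACA, for the box near their 3′ end. Of the RNAs listed for Mono Mac 6 (MM6) cells, a human monocytic cell line, they are the entries of type snoRNA with a name starting in ACA. There are 65 of them among 287 snoRNAs and 1231 RNAs of all classes in the table of cells without LPS, and 64 among 287 snoRNAs and 1139 RNAs in the table of cells with LPS. ACA5b is listed in the table without LPS alone.

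Small noncoding RNA was sequenced from 12 libraries, 3 in each of 4 groups. The groups are wild-type MM6 cells, MM6 cells without 5-lipoxygenase (5-LO knockout, ALOX5-/-), and the same cells of either genotype with lipopolysaccharide (LPS, 1 µg/mL for 6 h). Cells of all 4 groups had been exposed for 72 h, according to the labels, to TGF-beta (1 ng/mL) and calcitriol (50 nM), which make MM6 cells mature. The knockout cells are single-cell clones made with CRISPR/Cas9, and which clone went into which library is not in the labels. The labels number the libraries of a group without naming separate cultures, while the study describes its sequencing result as typical of repeated, independent experiments. Small RNA reads do not measure the ALOX5 transcript, so the knockout could not be checked here, while the myeloid miR-223-3p and miR-142 arms were present in all groups (miR-223-3p at 93.8 in wild-type and 74.3 in knockout cells without LPS) and miR-122, miR-1, miR-133a, miR-124 and miR-302 were not listed.

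An H/ACA snoRNA folds into hairpins followed by an H box and an ACA box, and it directs the pseudouridine synthase dyskerin (DKC1), together with NOP10, NHP2 and GAR1, to a uridine of a target RNA. Most guide the modification of ribosomal RNA in the nucleolus. Those that also carry a Cajal body signal, the scaRNAs, guide modification of spliceosomal snRNAs. In human cells nearly all are cut out of introns of host genes, many of which encode ribosomal or translation proteins or are spliced noncoding snoRNA hosts (SNHG genes). Some H/ACA snoRNAs give rise to shorter RNAs that are annotated as miRNAs.

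The deposited values are the authors' means of normalized counts over the 3 libraries of a group, which are called means here. Since they are means, no difference between the genotypes was tested. Reads of single libraries could be recovered for low means alone and are given below as descriptions, and a mean of 10 rests on 29 to 35 reads per group. For the knockout to wild-type ratios of members a 95% counting interval was computed, which leaves out the differences between libraries, and for the calls also a wider interval. Ratios printed without an interval, among them those of miRNAs and those of LPS to no LPS, are descriptions. The wider interval adds the variance between libraries seen in RNAs with means of 3 to 10, which corresponded to an SD of 24.5% to 40.1% of the mean in the 4 groups, and it assumes that the members vary in the same way. The tables without and with LPS were normalized separately and share no library, so knockout and wild-type cells were compared within a table.

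All 65 snoRNAs were matched to a RefSeq symbol and 53 to a position in GRCh37 (hg19), the build of the deposited data. The 53 RNAs were 121 to 249 nt long with a median of 134 nt. The letters ACA occurred in the last 8 bases of 51 of them and 3 bases before the annotated end in 41, on the RNA's own strand, against 10.0% of all 8-base windows of the same RNAs. This only checks the annotation, since the members were taken by a name given for that box. A host gene on the same strand or in RefSeq was found for 64 of the 65. It was a gene for a ribosomal protein for 7 and an SNHG gene for 11. Of the 53 placed members, 24 overlap an annotated exon of a host transcript, among them ACA11, ACA18, ACA36, ACA40 and ACA56, and the others lie in introns.

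The sequences below are those on which the results turn. ACA34 (SNORA2C, chr12:49048165-49048301, minus strand, intron of KANSL2) was the most abundant member and holds miR-1291 at bases 2 to 25, shown in capitals. ACA36 (SNORA36A, chrX:153996803-153996934, plus strand, within DKC1) and its copy ACA36B (SNORA36B, chr1:220373888-220374018, minus strand, intron of RAB3GAP2) hold the 5p arms of miR-664b and miR-664a, shown in capitals.
ACA34: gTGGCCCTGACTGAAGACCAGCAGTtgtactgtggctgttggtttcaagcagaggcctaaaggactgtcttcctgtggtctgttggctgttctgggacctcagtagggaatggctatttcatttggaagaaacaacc
ACA36: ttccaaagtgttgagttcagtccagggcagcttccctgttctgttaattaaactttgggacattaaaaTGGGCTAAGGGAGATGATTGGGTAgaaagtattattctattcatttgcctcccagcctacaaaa
ACA36B: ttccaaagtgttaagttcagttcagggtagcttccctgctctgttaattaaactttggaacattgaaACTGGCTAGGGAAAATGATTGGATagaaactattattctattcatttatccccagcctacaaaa

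The mature sequences of these miRNAs in RefSeq follow with the seed, bases 2 to 8, in capitals. No seed was shared among them.
miR-1291: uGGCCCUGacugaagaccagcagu
miR-664a-5p: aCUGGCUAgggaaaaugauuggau
miR-664a-3p: uAUUCAUUuauccccagccuaca
miR-664b-5p: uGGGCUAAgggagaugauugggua
miR-664b-3p: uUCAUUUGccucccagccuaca

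ACA67 (SNORA80A, chr21:33749496-33749631, minus strand, intron of URB1) had the highest knockout to wild-type ratio above the minimum without LPS, while its copy ACA67B (SNORA80B, chr2:10586840-10586975, minus strand, intron of ODC1) was nearly equal in both. They differ at 11 of 136 positions, which are in capitals.
ACA67: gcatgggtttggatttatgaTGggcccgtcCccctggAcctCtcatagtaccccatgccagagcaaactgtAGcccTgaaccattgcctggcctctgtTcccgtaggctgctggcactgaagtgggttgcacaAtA
ACA67B: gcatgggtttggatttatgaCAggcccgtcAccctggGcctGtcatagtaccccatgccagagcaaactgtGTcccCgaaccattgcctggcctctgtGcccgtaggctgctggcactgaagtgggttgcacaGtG

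ACA40 (SNORA40, chr11:93468277-93468402, minus strand, within TAF1D) had the lowest ratio without LPS. It is shown because its annotated sequence has no ACA in its last 8 bases, and so no base is in capitals.
ACA40: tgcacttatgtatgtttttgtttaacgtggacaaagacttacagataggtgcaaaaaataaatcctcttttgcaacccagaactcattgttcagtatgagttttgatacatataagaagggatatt

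A few members held most of the signal. The 3 most abundant, ACA34, ACA11 and ACA18, made up 62.0% of the summed means of all ACA-named snoRNAs in wild-type and 62.2% in knockout cells without LPS, and 62.8% and 62.7% with LPS. The 10 most abundant made up 79.1% to 80.0% in the 4 groups. Together the ACA-named snoRNAs were a small part of the snoRNA signal, with 0.540% of the summed snoRNA means in wild-type and 0.517% in knockout cells without LPS, and 0.541% and 0.566% with LPS. The snoRNAs outside the H/ACA lists, mostly C/D box RNAs, held between 99.04% and 99.18% of it. The median member had a mean of 112 in wild-type and 116 in knockout cells without LPS, against 2168 and 2299 for those other snoRNAs.

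**Figure D1:**
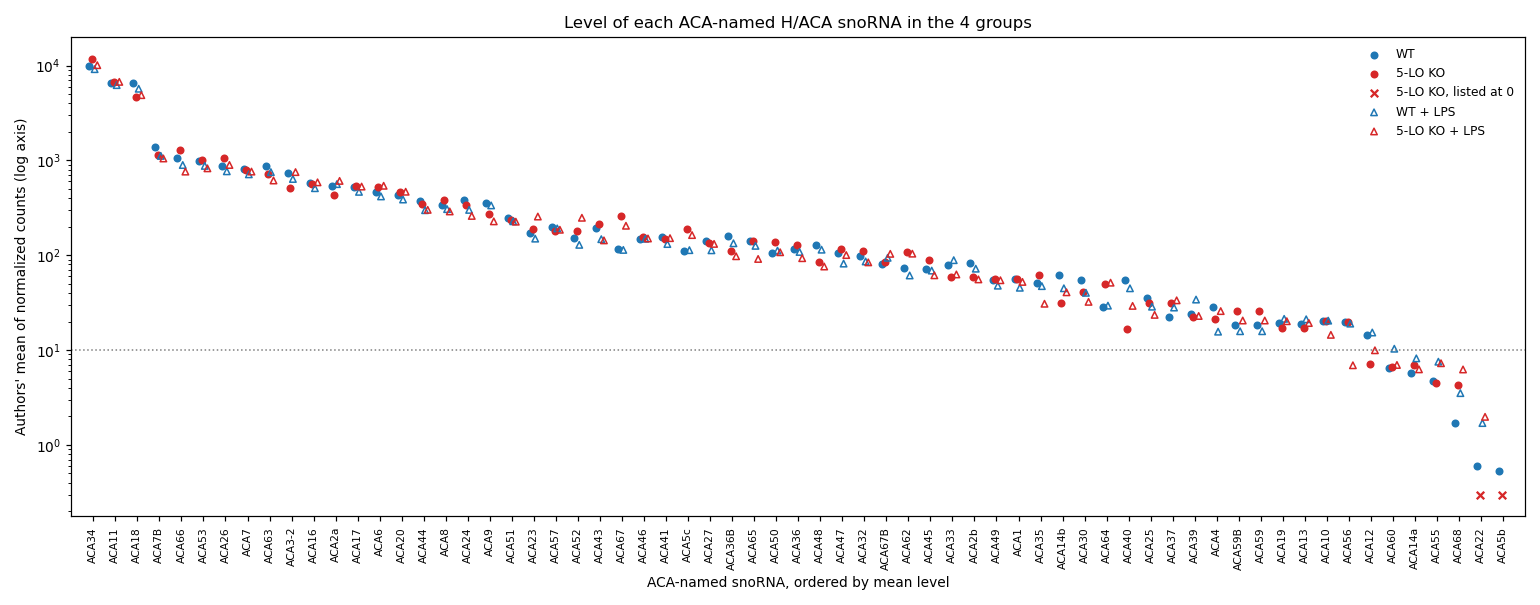
Authors' mean of normalized counts (log axis) of each of the 65 ACA-named snoRNAs in the 4 groups, ordered by level, with circles without LPS, triangles with LPS, blue for wild-type and red for knockout, crosses for a mean listed at 0, and a dotted line at the minimum mean of 10. ACA34, ACA11 and ACA18 stand above all others in every group, and the order of the members is much alike between groups.

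ACA34 had a mean of 10001 in wild-type and 11751 in knockout cells without LPS, and of 9178 and 10112 with LPS. It was the highest member in all 4 groups and alone made up 26.7% to 31.5% of their summed means. ACA11 (SCARNA22), a scaRNA within NSD2, had 6558 and 6769 without LPS and 6232 and 6743 with LPS. ACA18 had 6629 and 4676 without LPS and 5704 and 4884 with LPS, and so stood above ACA11 in wild-type cells without LPS and below it in the other 3 groups. Per 100 nt of RefSeq length, the mean over the 4 groups was 7489 for ACA34, 5261 for ACA11 and 4146 for ACA18, in the same order. Dividing by length is a description and not a correction, since level showed little relation to length, as given below.

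The next members were lower by a wide step. ACA7B, which differs at 2 of 139 positions from ACA7 of the RPL32 gene, had 843 per 100 nt over the 4 groups. The scaRNAs ACA66 (SCARNA20) and ACA26 (SCARNA4) followed with 775 and 698 per 100 nt, then ACA63 with 594, ACA7 with 557 and ACA3-2 with 502. ACA53, one of the 10 highest by its mean of 926, is the longest of these RNAs, with 250 nt in RefSeq, and had 370 per 100 nt. At the other end, 6 members in wild-type and 7 in knockout cells without LPS had means of 10 or less, and 4 and 7 with LPS.

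Length showed little relation to level. The libraries were cut from a gel at up to 260 bp including 126 bp of linkers, which leaves inserts of up to 134 nt. Of the 53 RNAs with a GRCh37 sequence, 28 are no longer than this and had a median level of 95.1 over the 4 groups, and the 25 longer RNAs had a median of 124. At full length the longer RNAs exceed this limit, so their reads can come from parts of the RNA. For no member do the means show whether the RNA was intact. Across 52 members with a level in all groups, the log2 level and the length had a Pearson r of 0.13 and a Spearman rho of 0.08. These RNAs share their libraries, and r and rho are descriptions.

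Without LPS the members were spread evenly around equal levels in both genotypes. Of 59 members with a mean over both genotypes of at least 10, 31 were higher and 28 lower in knockout cells, with a median log2 ratio of 0.01 and an interquartile range from -0.23 to 0.19. Over all 662 RNAs above the minimum the median was 0.02, with quartiles of -0.37 and 0.36. The split depends on the scaling: with the means of all RNAs brought to equal sums, which lowers every log2 ratio by 0.17, 17 were higher and 42 lower, and with equal snoRNA sums 23 were higher and 36 lower. In bulk libraries, fewer cells with an RNA and less of it per cell cannot be told apart. The summed means of the members were 37402 in wild-type and 37320 in knockout cells.

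Few members differed by a factor of 2. Only 1, ACA67, was at least 2-fold higher in knockout cells without LPS, against a background of 3.32% of all RNAs and 2.17% of all snoRNAs, and 2, ACA40 and ACA12, were at least 2-fold lower, against 6.04% of all RNAs and 1.81% of all snoRNAs. With equal sums of all means ACA67 fell short of 2-fold and 0 members were higher, and with a pseudocount of 1 or 10 only 1 was lower. No member was 2-fold higher with copies counted once or with a minimum of 500, and none 2-fold lower with a minimum of 50 or 500. As shares of the 59 members the deposited values give 1.69% and 3.39%, close to or under the background of all RNAs. At a factor of 1.5, 3 were higher and 4 lower, where 13.7% and 14% of all RNAs were. The counting interval left out 0 for 17 higher and 15 lower members, or 28.8% and 25.4%, against 38.2% and 36.9% of all RNAs and 42.8% and 35.1% of all snoRNAs. The wider interval left out 0 for ACA67 on the high side and for ACA40 and ACA14b on the low side, where it did so for 5.44% and 8.16% of all RNAs and 3.62% and 4.35% of all snoRNAs. With equal sums of all means or of the snoRNAs, the wider interval of ACA12 also left out 0.

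With LPS 28 members were higher and 31 lower in knockout cells, again out of 59, with a median log2 ratio of -0.03 and quartiles of -0.26 and 0.22. Over the 659 RNAs compared the median was -0.01. At a factor of 1.5, 6 were higher and 5 lower, where 13.5% and 16.5% of all RNAs were. No member was at least 2-fold higher, against 3.03% of all RNAs and 1.82% of all snoRNAs. ACA56 alone was at least 2-fold lower, which is 1.69% of the members against 8.35% of all RNAs and 0.364% of all snoRNAs. No member was 2-fold lower with a pseudocount of 10 or with a minimum of 50 or 500. The counting interval left out 0 for 20 higher and 16 lower members, or 33.9% and 27.1%, against 40.8% and 39.6% of all RNAs and 43.3% and 40% of all snoRNAs. The wider interval left out 0 for ACA52 and ACA67 on the high side and for ACA56 on the low side, where it did so for 4.86% and 11.5% of all RNAs and 3.27% in each direction of all snoRNAs. That of ACA67 held 0 with equal sums of all means, and that of ACA23 also left out 0 on the high side with equal snoRNA sums or the median of all RNAs set to 0. ACA23, ACA67, ACA14b, ACA52 and the members given with them from here on that are neither among the 10 highest, scaRNAs, TAF1D or KANSL2 members nor the 4 of largest difference between the tables were picked after their values were seen.

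**Figure D2:**
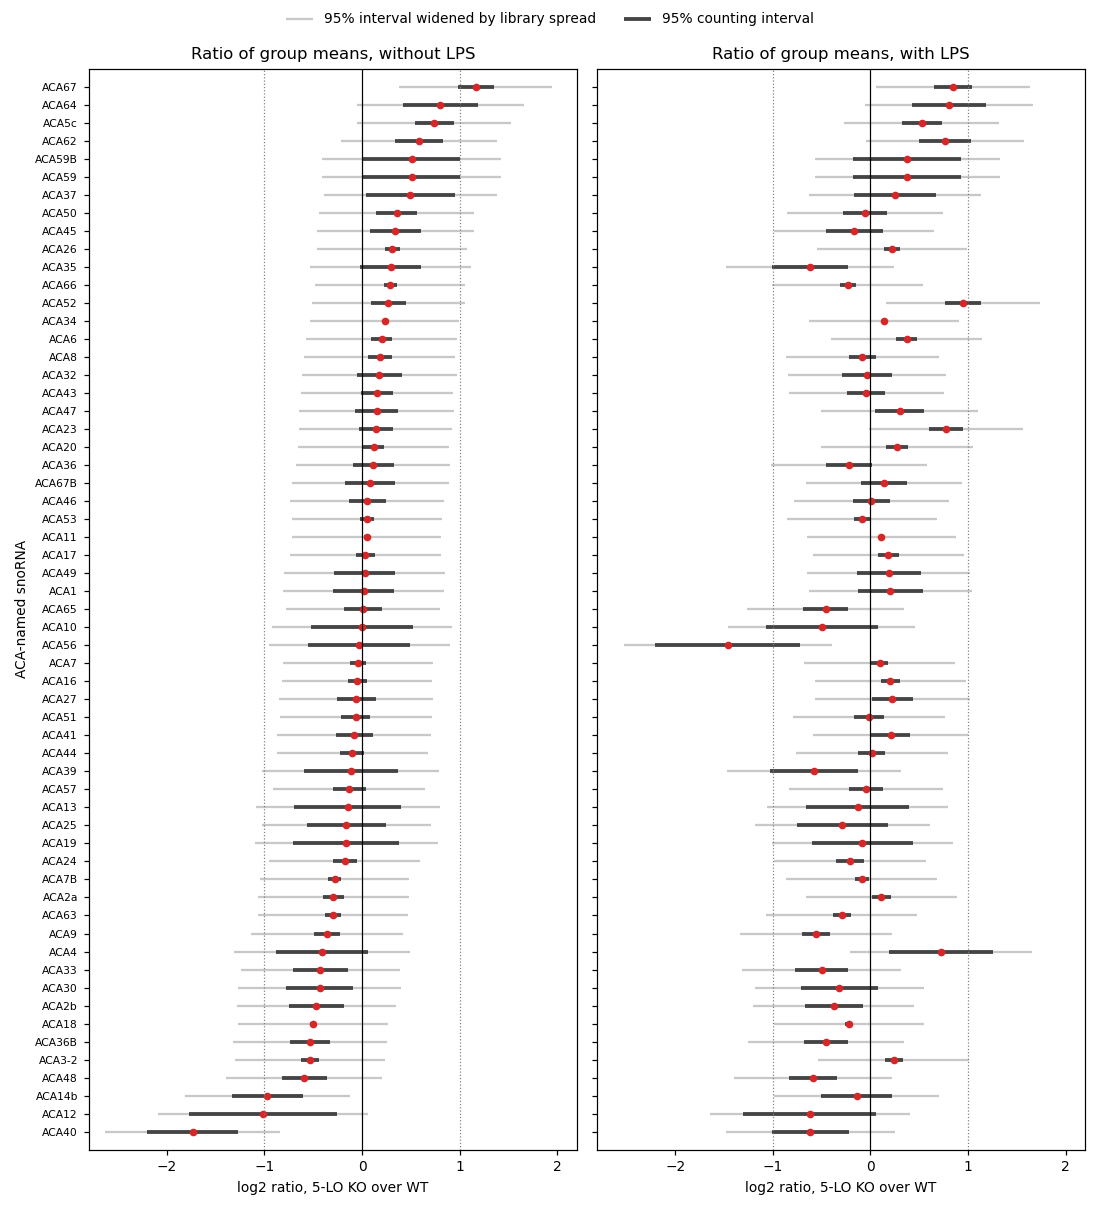
Log2 ratio of the knockout to the wild-type mean of the 59 ACA-named snoRNAs above the minimum, without LPS (left) and with LPS (right), in the order of the ratio without LPS, with 95% counting intervals in dark grey, intervals widened by the spread between libraries in light grey, and dotted lines at a 2-fold ratio. ACA67, ACA40 and ACA14b on the left and ACA52, ACA67 and ACA56 on the right have wide intervals that leave out 0.

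The spread of the members' ratios was set beside that of other snoRNAs. The interquartile range of their log2 ratios spanned 0.42 without LPS and 0.48 with LPS, and it spanned 0.62 and 0.77 for the snoRNAs outside the H/ACA lists. For the 24 other H/ACA snoRNAs, which carry U, E or HBI names, it spanned 0.64 without LPS, wider than for the members, and 0.39 with LPS, narrower than for the members. Their median log2 ratio was 0.07 without LPS and 0.23 with LPS. The log2 ratio of their summed means was -0.04 without and 0.23 with LPS, where that of the ACA-named members was -0.003 and 0.04. These are descriptions of the lists and were not tested.

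Set side by side, the ratios without and with LPS had the same sign for most members. Of 59 members above the minimum in both tables, 20 were higher and 20 lower in knockout cells in both, 11 were higher without LPS and lower with it, and 8 the reverse. The same sign thus held for 67.8% of the members and for 78.0% of 651 RNAs of all classes, of which 39.9% were higher and 38.1% lower in both, against 42.2% and 35.6% of the snoRNAs and 33.9% each of the members. This even split rests on the scaling, since with equal sums of all means 11 members were higher and 27 lower in both, and with equal snoRNA sums 15 and 22. No member was 2-fold higher or 2-fold lower in both tables, where 2.15% and 3.69% of all RNAs were, and 4 of 275 snoRNAs (1.45%), none of them a member, were 2-fold higher and 0 of 275 2-fold lower in both. At a factor of 1.5 in both, 2 members were higher and 3 lower, or 3.39% and 5.08%, against 8.14% and 9.83% of all RNAs. The log2 ratios of the 2 tables had a Pearson r of 0.55 and a Spearman rho of 0.57 over the 59 members, which come from the same cells and include copies that may share reads.

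**Figure D3:**
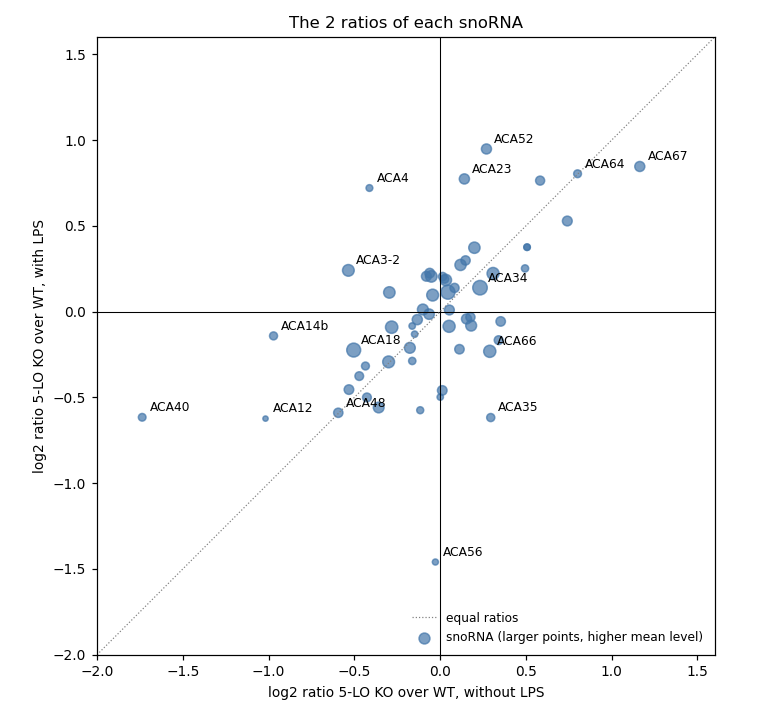
Log2 ratio of the knockout to the wild-type mean without LPS (horizontal) and with LPS (vertical) for the 59 ACA-named snoRNAs above the minimum in both tables, with larger points for higher levels and a dotted line where the ratios are equal. ACA67 lies high and ACA40 and ACA12 lie low in both, ACA56 lies low with LPS alone, ACA34 and ACA11 lie near the centre, and ACA18 lies to the left of it.

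ACA67 stood highest without LPS and second to ACA52 with LPS. Wild-type cells had a mean of 116 and knockout cells one of 260 without LPS, and 114 and 205 with LPS, so the knockout mean exceeded the wild-type mean in both tables. The log2 ratio was 1.16 (counting interval 0.98 to 1.35, wider interval 0.38 to 1.95) without LPS and 0.85 (0.65 to 1.04, and 0.05 to 1.64) with LPS. Its copy ACA67B had 80.4 and 85.2 without LPS and 94.1 and 104 with LPS, with log2 ratios of 0.08, which turned negative with equal sums of all means, and 0.14. The level of ACA67B relative to ACA67 was 0.693 for wild-type and 0.328 for knockout cells without LPS, a log2 difference of -1.08 with a counting interval from -1.39 to -0.77, and the wider interval from -2.21 to 0.05 held 0. With LPS the difference was -0.71 with a counting interval from -1.01 to -0.40, and the wider interval from -1.84 to 0.42 held 0.

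ACA40 stood lowest without LPS. Wild-type cells had a mean of 55.4 and knockout cells one of 16.6, a log2 ratio of -1.74 (counting interval -2.20 to -1.27, wider interval -2.63 to -0.84). The reads behind the knockout mean were recovered as 28, 13 and 11, or 21.0, 13.8 and 15.2 normalized counts in the 3 libraries, all below the wild-type mean. With LPS the means were 44.8 and 29.3, a log2 ratio of -0.62 (-1.01 to -0.22, and -1.48 to 0.25). The difference between the tables was 1.12, with a wider interval from -0.12 to 2.36 that held 0.

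ACA56 differed most between the tables. This snoRNA lies within DKC1, the gene for dyskerin itself, as does ACA36. Wild-type cells without LPS had a mean of 19.99 and knockout cells one of 19.62, and the recovered normalized counts were 16.8, 21.7 and 21.5 in the wild-type and 14.97, 19.05 and 24.84 in the knockout libraries, which overlap. With LPS the means were 19.02 and 6.92, and the knockout libraries had 12.3, 5.99 and 2.46. Without 1 of these knockout libraries in turn, the log2 ratio with LPS ran from -2.17 to -1.06. The log2 ratio was -0.03 without and -1.46 with LPS, a difference of -1.43 with a wider interval from -2.85 to -0.02, the only one of 59 such intervals that left out 0, against 0.307% of all RNAs in the high and 1.54% in the low direction. This call is lost with each of the 3 other scalings, where the upper bound was 0.09 (equal sums of all means), 0.06 (equal snoRNA sums) or 0.02 (median of all RNAs set to 0). ACA36 had 117 and 127 without LPS and 108 and 93.2 with LPS, with log2 ratios of 0.11 and -0.22.

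The other members with large differences between the tables were ACA4 and ACA35. ACA4, from the gene for the translation factor EIF4A2, had 28.4 in wild-type and 21.3 in knockout cells without LPS, and 15.6 and 25.8 with LPS, so that the order of the genotypes turned. ACA35 (SCARNA1), a scaRNA from PPP1R8, turned the other way, with 50.5 and 62.0 without LPS and 47.3 and 30.8 with LPS. The differences of the log2 ratios were 1.13 for ACA4 and -0.91 for ACA35, and both wider intervals held 0 (-0.16 to 2.43 and -2.10 to 0.28). Among the abundant members ACA3-2, from the gene for the ribosomal protein RPL27A, had 734 and 506 without LPS and 638 and 754 with LPS, a difference of 0.78 with a wider interval from -0.32 to 1.87.

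Of the further members past 1.5-fold, ACA14b, from TOMM20, had 61.9 and 31.6 without LPS and 44.9 and 40.7 with LPS. ACA52, from the gene for the ribosomal protein RPLP2, had 151 and 182 without LPS and 129 and 249 with LPS, a log2 ratio of 0.95 with a wider interval from 0.16 to 1.74. ACA64, from SNHG9, was higher in knockout cells by a log2 ratio of 0.80 in both tables, from 28.3 to 49.4 without LPS and from 29.4 to 51.4 with LPS, and the wider intervals from -0.05 to 1.66 held 0. ACA48, which lies within EIF4A1, was lower in both with a log2 ratio of -0.59 each time, from 129 to 85.5 and from 115 to 76.1, and its wider intervals from -1.39 to 0.20 and from -1.40 to 0.22 held 0. ACA5c had log2 ratios of 0.74 without and 0.53 with LPS, ACA62 of 0.58 and 0.76, and ACA23 of 0.14 and 0.77. ACA5c was past 1.5-fold without LPS only, and ACA62 and ACA23 with LPS only. On the deposited scale the wider intervals of ACA5c, ACA62 and ACA23 held 0 in both tables.

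The scaRNAs, which act on snRNAs in Cajal bodies, were higher in part and lower in part. There are 9 of them, and 8 passed the minimum. Without LPS ACA11, ACA26, ACA35, ACA45, ACA47 and ACA66 were higher and ACA12 and ACA57 lower in knockout cells, and with LPS ACA11, ACA26 and ACA47 were higher and the other 5 lower. With equal sums of all means, ACA11 and ACA47 were lower without LPS, as was ACA11 with equal snoRNA sums. ACA66 had 1066 and 1303 without LPS and 895 and 763 with LPS, a log2 ratio of 0.29 and of -0.23. ACA26 had 865 and 1072 without LPS and 768 and 896 with LPS, higher in knockout cells in both. ACA45 (SCARNA15), which is known to be cut by Dicer into a miRNA-like RNA, had 70.8 and 89.7 without LPS and 68.95 and 61.5 with LPS, log2 ratios of 0.34 and -0.17 whose wider intervals held 0.

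ACA12 (SCARNA23), from POLA1, was a low scaRNA with uneven libraries. Without LPS wild-type cells had a mean of 14.5 and knockout cells one of 7.17, a log2 ratio of -1.02 with a wider interval from -2.09 to 0.06. The recovered reads were 19, 15 and 12 in the wild-type libraries and 14, 0 and 8 in the knockout libraries, and the log2 ratio fell short of 2-fold without the knockout library at 0 (-0.43) or the wild-type library with 19 reads (-0.98). With LPS the means were 15.3 and 9.95, and the knockout libraries held 2, 0 and 23 reads. Most of that knockout mean thus came from 1 library, and without it the log2 ratio was -4.32 in place of -0.62, while it was -0.04 without the library at 0. ACA68 (SCARNA21), from CHD3, was below the minimum, with 4, 2 and 0 reads in wild-type and 2, 8 and 2 in knockout libraries without LPS, and 3, 3 and 4 against 4, 10 and 3 with LPS.

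Pairs of members within the same host gene were compared by their ratio to each other. The counting interval of the difference in this ratio between the genotypes held 0 for 11 of 22 pairs without LPS and for 12 of 22 with LPS. Most of the 22 pairs are combinations of the 6 TAF1D members, so the same members recur. These counts are therefore not a rate over host genes. The wider interval left out 0 for 5 pairs without LPS, all of ACA40 with another TAF1D member, and for 0 pairs with LPS. These 5 pairs share ACA40, whose own ratio was the lowest of the 59, so they repeat 1 value, and no background over pairs of other RNAs was computed. TAF1D, a gene for a subunit of the RNA polymerase I factor SL1, holds ACA1, ACA8, ACA18, ACA25, ACA32 and ACA40, whose levels span a factor of 183. Without LPS their log2 ratios ran from -1.74 for ACA40 to 0.18 for ACA8. ACA18, with -0.50 (counting interval -0.54 to -0.47, wider interval -1.27 to 0.26), was lower in knockout cells while ACA8 (336 and 381) and ACA32 (98.6 and 111) were higher and ACA1 (55.7 and 56.3) was nearly equal. The ratio of ACA40 to ACA18 differed between the genotypes by -1.23 on the log2 scale (counting interval -1.70 to -0.77) without LPS and by -0.39 (-0.79 to 0.01) with LPS. With LPS the 6 ratios lay closer together, from -0.62 to 0.20.

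KANSL2, a gene for a subunit of a histone acetyltransferase complex, holds ACA34, ACA2a and ACA2b. Their RefSeq symbols are SNORA2C, SNORA2A and SNORA2B, and whether these related RNAs share reads was not examined. Without LPS ACA34 was higher in knockout cells, with a log2 ratio of 0.23, while ACA2a (531 and 433) and ACA2b (82.5 and 59.5) were lower, with -0.30 and -0.47. ACA34 was 18.8 times the level of ACA2a in wild-type and 27.1 times in the knockout, a log2 difference of 0.53 with a counting interval from 0.42 to 0.64. With LPS the same ratio was 16.3 and 16.6, a difference of 0.03 (-0.07 to 0.13). The wider intervals of the KANSL2 pairs held 0 in both tables.

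**Figure D4:**
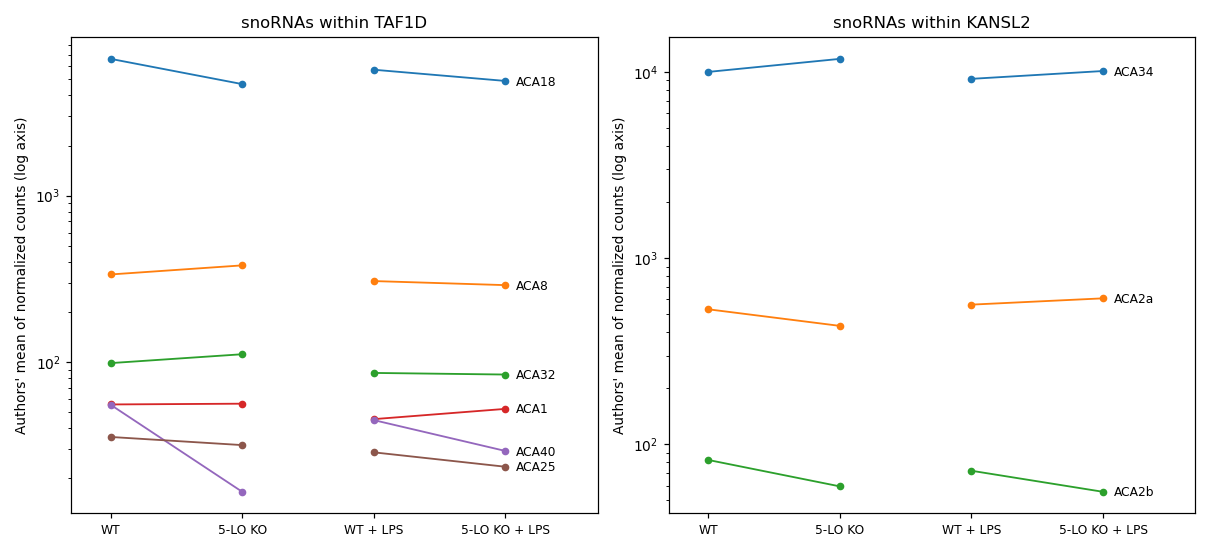
Authors' mean of normalized counts (log axis) of the snoRNAs that lie within TAF1D (left, 6 snoRNAs) and KANSL2 (right, 3 snoRNAs) in the 4 groups, with lines joining wild-type and knockout cells of a table. ACA40 lies at 55.4 in wild-type and 16.6 in knockout cells without LPS, while its TAF1D neighbours ACA1, ACA8, ACA25 and ACA32 have nearly flat lines.

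Copies of a snoRNA under one number raise the question of shared reads. ACA59 and ACA59B had the same mean in each of the 4 groups (18.2 and 25.9 without LPS, 15.8 and 20.5 with LPS), so the same reads were counted for both. No other pair of members had the same values. ACA7 and ACA7B, 98.6% identical, had unequal means of 823 and 1384 in wild-type cells without LPS, so not all reads were counted for both. ACA7B was 1.68 times ACA7 in wild-type and 1.43 times in knockout cells without LPS. ACA14a and ACA14b, 91.1% identical, had 5.71 and 61.9 in wild-type cells. For how the authors' counting split reads that match both copies, nothing was stated in the sources at hand. Copies were paired here by their ACA number alone. RefSeq symbols also group ACA34 with ACA2a and ACA2b (SNORA2C, SNORA2A and SNORA2B), and ACA17 with ACA43 (SNORA17A and SNORA17B). They likewise group ACA50 with ACA62 (SNORA50A and SNORA50C). Reads that match more than 1 member of these groups were not examined.

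The miRNA entries inside members were compared with the snoRNA entries. miR-1291 had 9633 in wild-type and 11289 in knockout cells without LPS, and 8828 and 9680 with LPS, which is 95.7% to 96.3% of ACA34 in the 4 groups. The precursor entry mir-1291 had 99.8% to 99.9% of ACA34. The log2 ratio of miR-1291 was 0.23 without and 0.13 with LPS, as it was for ACA34 (0.23 and 0.14). Nearly all reads of the ACA34 entry can thus have been counted again for miR-1291, which lies in the first bases of the RNA, those in capitals above.

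In ACA36B and ACA36, at lower levels, the 5p arms were close to the snoRNA entry and the 3p arms were lower. ACA36B had 159 in wild-type and 110 in knockout cells without LPS, and 134 and 97.6 with LPS, and miR-664a-5p held 99.4% to 100% of it. Its log2 ratio was -0.53 without and -0.45 with LPS, lower in knockout cells in both, with counting intervals from -0.74 to -0.33 and from -0.68 to -0.23 and wider intervals that held 0. miR-664b-5p held 98.6% to 99.2% of ACA36. The 3p arms held less, with 76.5% to 80.4% of ACA36B for miR-664a-3p and 60.1% to 70% of ACA36 for miR-664b-3p. The sum of both arms was 176% to 180% of the mir-664a entry and 160% to 170% of the mir-664b entry, so the arms together hold more than the precursor entry. Some reads can thus have been counted for both arms, but how reads were assigned to the entries was not examined. ACA47 overlaps MIR6516 in RefSeq, and miR-6516 was not listed.

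**Figure D5:**
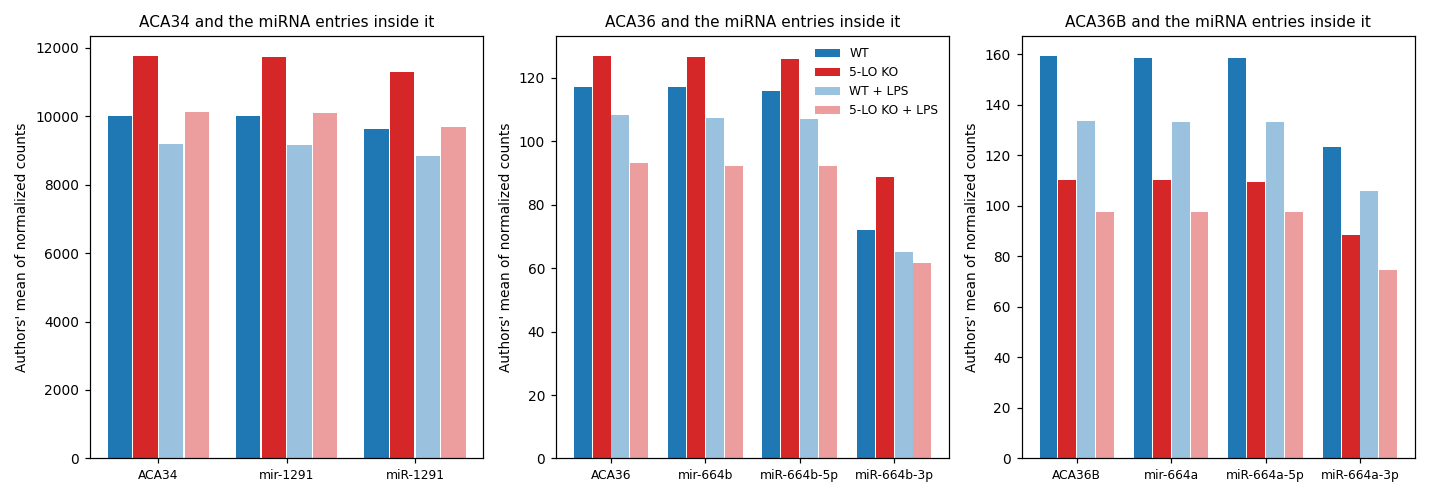
Authors' mean of normalized counts of ACA34, ACA36 and ACA36B beside the precursor and mature miRNA entries that lie inside them, in the 4 groups (blue wild-type, red knockout, pale with LPS, bars from 0). The snoRNA, the precursor and the 5p or single miRNA bars are almost equal, and the 3p bars of miR-664b and miR-664a are lower.

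Levels with LPS stood slightly under those without it on the deposited scales, which were set separately. In wild-type cells the log2 ratio of the mean with LPS to that without had a median of -0.17 over 59 members and ran from -0.86 for ACA4 to 0.50 for ACA39. In knockout cells the median was -0.10, and the range was from -1.50 for ACA56 to 0.81 for ACA40. The same medians over all snoRNAs with a mean of at least 10 were -0.19 in both genotypes. Since the tables share no common scale, an effect of LPS on a member cannot be told apart from the normalization.

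The lowest members give the limit of the data. ACA22 had 1, 1 and 0 reads in the wild-type and none in the knockout libraries without LPS, and 5 and 6 reads in all with LPS. ACA5b had 2 reads in 1 wild-type library and none in the knockout libraries. ACA60 and ACA55 lacked reads in 1 knockout library without LPS (15, 8 and 0, and 8, 7 and 0), and the wild-type libraries had 11, 4 and 6 and 8, 2 and 5. For these members a difference between the genotypes was not detectable at this depth.

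The ratios were also set beside the base composition of the members. Across 47 members with a GRCh37 sequence, the GC content and the log2 ratio had a Pearson r of 0.41 and a Spearman rho of 0.29 without LPS, and of 0.32 and 0.32 with LPS. The part of base composition in the ratios was not tested. The median GC content was 46.5%, and ACA40 had the lowest with 32.5%.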

How the data were processed

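Small RNA libraries (Lexogen small RNA-Seq kit, 3 per group) were size-selected, trimmed, annotated against hg19 and normalized with omiRas by the authors. The deposited signal columns hold the authors' mean of normalized counts of each genotype, in a table without and a table with LPS. Version, aligner and scaling were not stated in the sources used here. Further columns hold the authors' log2 fold changes, p-values and FDR, which were not used.

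Members were taken by name. Samples were grouped by their labels. Log2 ratios of the means were computed without a pseudocount, and members with a mean over both genotypes under 10 were left out of counts. The planned named-member rule took the 10 highest means, members 2-fold apart in both tables (none), the 4 largest differences between tables, scaRNAs, hosts with 3 or more members, and examples of members at 0. Members, lists and rules were chosen with earlier results of these data known.

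Size factors were recovered from means of at most 10, all of which (352 to 439 per group) were whole-read sums in exactly 1 way. They differed within a group by a factor of 1.41 to 2.58, and library totals are unknown. Reads for means of 10 to 20 are quoted where 1 combination gave the value. They are weaker evidence, since values moved off their printed figure still gave whole reads for up to 88.3%. They could not be had for wild-type cells with LPS. Counting intervals cover counting error only, since no molecular identifiers are shown. The wider interval, also under the other scalings, was added after the data were seen. The steps were tested on simulated data. Positions and sequences are from GRCh37 with GENCODE, miRNAs from RefSeq (GRCh38.p14). The GENCODE match of ACA59B was not used, since its length differed from RefSeq. Python 3.11.15, numpy 2.4.6, pandas 2.3.3 and Biopython 1.88 were used. One sequence is not reported here.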

Additional observations from a re-analysis of the deposited data

How the results depend on the processing

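No paired analysis was possible because the deposited columns are means that carry no replicate number. The medians of the log2 ratios lay on either side of 0 under the alternatives, from -0.16 (equal sums of all means) to 0.04 (minimum of 50) without LPS and from -0.10 (equal sums of all means) to 0.10 (minimum of 500) with LPS. A rescaling moves all members alike, and with equal sums of all means 17 were higher and 42 lower without LPS. Without LPS the count of 2-fold higher members (1) was 0 with equal sums of all means, with copies counted once and with a minimum of 500, 2 with no minimum and 3 at a fold of 1.5. The count of 2-fold lower members (2) was 1 with a pseudocount of 1 or 10 and with the wider interval, 0 with a minimum of 50 or 500, 3 with equal sums of all means or of the snoRNAs and 4 at a fold of 1.5. With LPS the count of higher members (0) was 6 and that of lower members (1) was 5 at a fold of 1.5, and the latter was 0 with a pseudocount of 10 or a minimum of 50 or 500. Members higher in both tables (20) numbered 11 with equal sums of all means, where 27 were lower in both in place of 20, and 3 with a minimum of 500, and members lower in both numbered 11 and 3 with minima of 50 and 500, where fewer were compared. The share of the snoRNA sum was 0.396% for wild-type and 0.355% for knockout cells without LPS, and 0.394% and 0.402% with LPS, when the most abundant member was left out, and 0.618%, 0.598%, 0.619% and 0.651% without the most abundant other snoRNA. Of 52 ratios of named members, 3 changed sign with equal snoRNA sums and 0 with a pseudocount of 1. Leaving out single libraries was possible only for ratios with recovered reads. Without 1 knockout library in turn, ACA40 had log2 ratios from -1.94 to -1.62 without LPS, and ACA56 had -2.17 to -1.06 with LPS. For both of these ratios no wild-type library could be left out, so the part of single wild-type libraries is unknown. ACA12 had -1.47 to -0.43 without LPS, where libraries of both genotypes could be left out. The value of -0.43 left out the knockout library with 0 reads. With LPS, where only knockout libraries could be left out, ACA12 had -4.32 to -0.04. There -4.32 left out the knockout library with 23 reads and -0.04 the one with 0. The means say nothing of the spread of abundant members between libraries, and members near the minimum rest on few reads.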
